A study of Mus musculus with 9 samples.

Results

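The 5 tumours whose label gives a high amplification of the Erbb2/Neu locus were compared by the reproductive history of the mouse. They are 5 of the 9 tumours of the series and were chosen by their labels alone. The virgin side holds MS1213.1, MS1163.1 and MS1163.2. The parous side, of mice that had been through at least 1 pregnancy, holds MS1218.2 and MS1155.3. All 5 were adenocarcinomas of no special type, AC(NST), so that histotype and amplification label are shared and parity is the labelled difference. By their numbers, MS1163.1 and MS1163.2 came from the same mouse, so that the 3 virgin tumours stand for 2 mice and the 2 parous tumours for 2 mice, although the study's own text counts a separate mouse for each tumour.

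All 5 tumours arose in mice that carried the same alleles. A single copy of NeuKI, an activated rat Neu (NeuNT) placed in the endogenous Erbb2 locus behind a floxed stop cassette, was combined with a single copy of BlgCre, in which the promoter of beta-lactoglobulin, a milk protein gene, drives Cre in luminal ER- mammary cells. The background was mixed FVB and C57Bl6. The spleen of mouse MS1163 had itself lost the stop cassette, and the study singled out MS1218.2 as the library of lower tumour cell purity. Its assays of amplification disagreed for MS1213.1 and MS1218.2. RNA from snap-frozen tumours was depleted of ribosomal RNA and sequenced. Between 12501225 and 18327792 reads were counted on genes in each of the 5 libraries. Levels are given as normalised counts, the counts divided by a size factor for each library. The other epithelial tumours of the series, MS1210.1, MS1349.1 and MS1166.1, are all parous and labelled not/low-amplified. MS1210.1 and MS1349.1 are metaplastic adenosquamous carcinomas and MS1166.1 is an AC(NST), and they are named only where they show how a gene behaved in further parous tumours.

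During pregnancy, alveolar cells of the mammary gland multiply and, under prolactin, JAK2 and STAT5, begin to make the caseins, whey proteins and fat droplets of milk. After weaning the gland regresses (involution), but a gland that has lactated keeps epithelial cells that respond faster to a further pregnancy. MHC class I molecules, made of a heavy chain (H2-K1, H2-D1) and beta-2 microglobulin (B2m), show peptides from inside the cell to T cells, and their genes and those of the peptide transporter (Tap1, Tap2) respond to interferons, as do a larger group of antiviral genes.

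Promoters of genes on which the results below turn are shown here because STAT5 binds the letters TTCNNNGAA, and factors of the interferon response bind the interferon-stimulated response element (ISRE), searched here as GAAA, any 2 bases and GAAA. Sequences are from RefSeq (GRCm38.p6), 5′ to 3′ on the strand of the gene, with matches on either strand in capitals. The first is a stretch of 29 bases around the match beside Csn1s2a, at chr5:87774460-87774488 (+ strand), and the others are the 250 bases before the RefSeq start of Csn2 (chr5:87699426-87699675, - strand), Lalba (chr15:98482684-98482933, - strand), Isg15 (chr4:156200819-156201068, - strand) and B2m (chr2:122147437-122147686, + strand).
Csn1s2a: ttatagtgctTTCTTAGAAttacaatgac
Csn2: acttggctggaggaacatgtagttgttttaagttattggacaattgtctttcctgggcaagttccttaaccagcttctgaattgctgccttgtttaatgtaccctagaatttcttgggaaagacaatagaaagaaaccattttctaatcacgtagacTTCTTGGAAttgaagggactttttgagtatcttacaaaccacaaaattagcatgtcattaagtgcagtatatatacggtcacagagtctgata
Lalba: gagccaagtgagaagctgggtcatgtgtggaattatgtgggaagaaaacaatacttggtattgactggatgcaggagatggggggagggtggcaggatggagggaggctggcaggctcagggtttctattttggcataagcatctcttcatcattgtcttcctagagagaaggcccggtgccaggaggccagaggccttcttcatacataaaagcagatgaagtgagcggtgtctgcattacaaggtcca
Isg15: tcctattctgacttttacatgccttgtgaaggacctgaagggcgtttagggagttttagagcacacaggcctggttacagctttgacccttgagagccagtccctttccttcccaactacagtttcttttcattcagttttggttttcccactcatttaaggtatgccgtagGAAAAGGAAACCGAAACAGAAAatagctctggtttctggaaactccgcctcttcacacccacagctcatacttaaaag
B2m: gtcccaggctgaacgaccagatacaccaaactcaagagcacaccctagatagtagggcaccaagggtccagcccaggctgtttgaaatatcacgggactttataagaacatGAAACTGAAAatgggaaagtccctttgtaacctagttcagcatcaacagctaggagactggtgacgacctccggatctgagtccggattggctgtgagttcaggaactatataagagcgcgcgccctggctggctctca
The match of Csn1s2a began 20 bases after the RefSeq start and 97 bases before the start of the gene in the GENCODE annotation, and that of Csn2 began 93 bases before its start (position -93). The 250 bases of Lalba held none. Isg15 held 3 overlapping matches of the ISRE, at positions -78, -72 and -66, and B2m 1, at -139. Over all 32851 RefSeq promoters (300 bases each), 8.30% held TTCNNNGAA and 3.44% held the ISRE. Of the 12 milk genes tested that had a promoter in the table, 4 held TTCNNNGAA (Csn1s1, Csn1s2a, Csn2 and Glycam1). Of the 17 interferon-stimulated genes with a promoter, 11 held the ISRE, and of the 10 MHC class I genes 2 did (B2m and H2-T23). A match is a description of the letters and not a measured binding site.

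Across the transcriptome, no gene separated virgin from parous tumours beyond the spread between tumours in the main test. Of 13768 genes with a mean count of at least 10, edgeR's quasi-likelihood test called 0 (0%) in either direction at an adjusted p-value under 0.05 and a fold change over 2, and the smallest adjusted p-value was 0.505, for Csn1s2a and Slc16a3. At an unadjusted p-value under 0.05 there were 871 genes (6.33%), of which 703 (5.11%) were higher in the parous and 168 (1.22%) higher in the virgin tumours. Limma-voom also called 0 genes, with 715 at an unadjusted p-value under 0.05. DESeq2 called 66 of 14407 genes, 45 (0.312%) higher in the parous and 21 (0.146%) higher in the virgin tumours, and 61 of the 66 did not overlap between the sides. Since 2 of the tumours share a mouse, the p-values measure the spread between these tumours and not between mice.

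Beyond the tests, a gene was said not to overlap where its lowest normalised count on one side exceeded the highest on the other. In 1590 of the tested genes (11.5%) both parous tumours lay above all 3 virgin tumours, and in 1273 (9.25%) all 3 virgin tumours lay above both parous tumours. The gap between the sides, with 10 added to each normalised count, was at least 2-fold in 76 genes (0.552%) higher in the parous and in 21 (0.153%) higher in the virgin tumours. Of the 76 genes, 42 were also higher in every one of the 5 parous epithelial tumours than in any virgin tumour, and of the 21 genes 15 were lower in every one. Over all tested genes, 726 (5.27%) and 550 (3.99%) separated the 3 virgin from the 5 parous tumours in these directions. The 76 and 21 genes were already chosen by the parous high-amplified tumours, which are among the 5. The like shares for them are therefore 726 of the 1590 and 550 of the 1273 genes that did not overlap. For the 3 further tumours parity and a not/low amplification label cannot be told apart.

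The parous pair was not a close pair. The median absolute difference over all tested genes, on the log2 scale with 10 added, was 0.735 between MS1218.2 and MS1155.3. It was 0.399 between MS1163.1 and MS1163.2, which share a mouse, and 0.428 and 0.488 between these and MS1213.1. MS1155.3 lay as near to the virgin tumours (0.366, 0.373 and 0.477) as they lay to each other, whereas MS1218.2 lay far from all of them (0.709 to 0.872).

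Milk genes held the widest gaps. Csn1s2a (ENSMUSG00000061937; chromosome 5, 87774567 to 87788797), a casein, had normalised counts of 63.6, 10.5 and 32.3 in virgin tumours MS1213.1, MS1163.1 and MS1163.2, and 1298 and 2106 in parous tumours MS1218.2 and MS1155.3. Both parous tumours were far above all virgin tumours, with the widest gap of any gene tested higher in parous tumours (17.8-fold). Virgin tumours averaged 35.5 ± 26.7 (SD, n = 3) and parous tumours 1702 ± 572 (SD, n = 2). EdgeR gave a log2 fold change of 5.59 (SE 0.71, adjusted p = 0.505), and DESeq2 called the gene (5.55, adjusted p = 4.58e-11).

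Lalba (ENSMUSG00000022991; chromosome 15, 98480400 to 98482721) encodes alpha-lactalbumin, the subunit that turns a galactosyltransferase to lactose synthesis. Its counts were 134, 85.0 and 63.4 in the virgin tumours in the same order, and 757 in MS1218.2 and 5787 in MS1155.3. The sides did not overlap (gap 5.33-fold), and the parous tumours themselves differed widely (log2 fold change 5.12, SE 0.82, adjusted p = 0.722, edgeR). The whey acidic protein gene Wap had 12.5, 2.10 and 1.24 in the virgin tumours against 376 in MS1218.2 and 82.4 in MS1155.3 (gap 4.10-fold, log2 fold change 5.40, SE 1.09, adjusted p = 0.722). The major casein gene Csn2 had 645 in MS1213.1, 12.6 in MS1163.1 and 55.9 in MS1163.2, against 4146 and 1979 in MS1218.2 and MS1155.3. Here MS1213.1 stood above the other virgin tumours and still below both parous tumours (gap 3.03-fold, log2 fold change 3.70, SE 1.31, adjusted p = 0.722). Unless another value is given, the adjusted p-value (edgeR) of each gene named below with a log2 fold change was between 0.722 and 0.735.

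**Figure D1:**
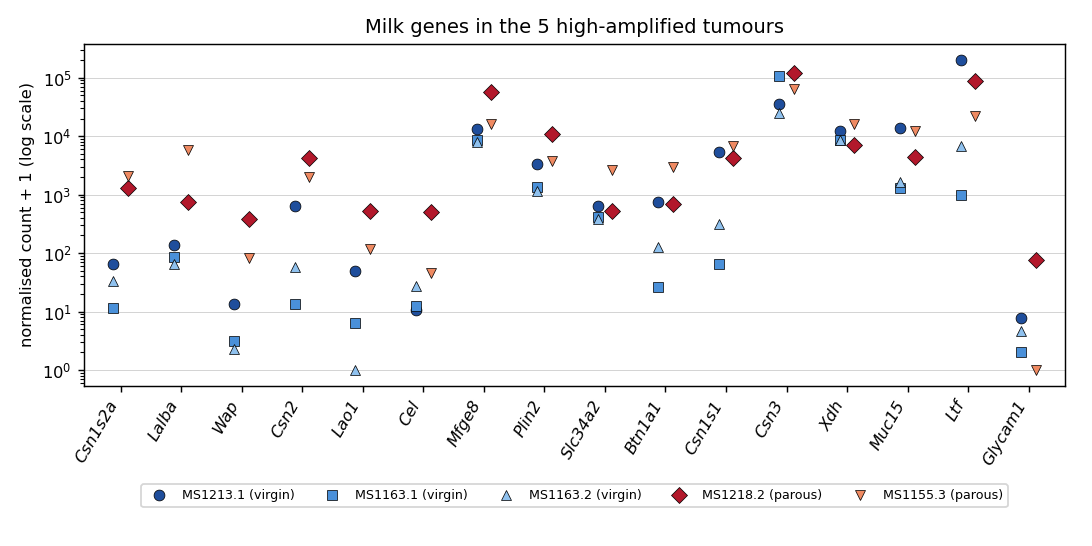
Normalised counts plus 1 (log axis) of the 16 tested milk genes in each of the 5 high-amplified tumours, 1 point per tumour, blue for virgin and red or orange for parous. Csn1s2a, Lalba, Wap, Csn2, Lao1, Cel, Mfge8 and Plin2, at the left, do not overlap between the sides, whereas Csn1s1, Muc15 and Ltf, high in MS1213.1, and Csn3, high in MS1163.1, do.

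Of the 16 milk genes tested, 15 had a log2 fold change above 0 and 8 lay higher in both parous tumours than in all virgin tumours, 50% against 11.5% of all genes, while 0 lay higher in the virgin tumours. The median log2 fold change of the list was 2.29, beside 0.06 over all genes. The other 4 that did not overlap were Lao1, an amino acid oxidase of milk (0 to 48.2 against 115 and 531), Cel, the bile salt-stimulated lipase (9.63 to 26.1 against 43.8 and 497), Mfge8, a protein of the milk fat globule membrane (7988 to 13450 against 16360 and 57688), and Plin2, which coats fat droplets (1167 to 3270 against 3719 and 10952). Lao1 and Plin2 lie on chromosome 4 and Lalba on chromosome 15, 2 chromosomes described below. Without the list's genes on these chromosomes, 5 of 12 (41.7%) lay higher in both parous tumours and the median was 1.83. Of all genes off these chromosomes, 8.31% lay higher in both parous tumours.

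The separation was narrowed by MS1213.1. Csn1s1, a casein, had 5251 in MS1213.1 and 65.1 and 309 in the other virgin tumours, against 4185 and 6715 in the parous tumours, so that MS1213.1 lay between them. Ltf, which encodes lactoferrin, was highest in MS1213.1 (204385) and lower in both parous tumours (86521 and 21931), and 999 and 6690 in the pair from mouse 1163. Without MS1213.1 the median of the list was 3.96 and 13 of its 16 tested genes lay higher in both parous tumours. Of all 13768 genes, 2691 did so without MS1213.1. Csn3 was abundant in all 5 tumours (24620 to 118257) and Xdh, the xanthine dehydrogenase of the fat globule, nearly level (8679 to 12333 against 7030 and 15908). Per kilobase of exon, Csn3 was at 5930 to 28482 normalised counts in every tumour, while Csn1s2a did not exceed 18.1 in a virgin tumour and reached 370 and 601 in the parous tumours. Milk genes took 1.89%, 0.829% and 0.334% of the counted reads in the virgin tumours and 1.76% and 0.960% in MS1218.2 and MS1155.3. These shares overlapped, and in MS1213.1 Ltf made up 204385 of the summed level of 290908.

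The further parous tumours did not share one milk pattern. Csn1s2a was at 374422 in MS1349.1, 296 in MS1166.1 and 21.8 in MS1210.1, the last within the range of the virgin tumours. Of the 16 milk genes, 2 were above all virgin tumours in all 5 parous tumours, beside 5.27% of all genes. Genes upstream of milk synthesis had no common direction. Of 18 genes of the prolactin axis and luminal transcription factors, 9 were above and 9 below 0, with a median log2 fold change of 0.06. Of the 18, 1 lay higher in both parous tumours (5.56%, beside 11.5% of all genes). That gene was Aldh1a3, a retinaldehyde dehydrogenase of luminal progenitors (293, 390 and 223 against 833 and 636; log2 fold change 1.31, SE 0.40). The prolactin receptor Prlr was at 4938 to 6551 in the virgin tumours, 769 in MS1218.2 and 5889 in MS1155.3, and Stat5a at 1024 to 6380 against 1921 and 4304.

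Of the 12 genes with the widest gaps higher in the parous tumours, 3 were milk genes (Csn1s2a, Lalba and Wap). Slc16a3 (chromosome 11), which encodes the lactate exporter MCT4, had 152, 205 and 147 in the virgin tumours and 1457 and 1034 in the parous tumours. The virgin tumours lay close together and both parous tumours well above (gap 4.87-fold, log2 fold change 2.92, SE 0.38, adjusted p = 0.505, edgeR; 6.56e-07, DESeq2). Bdh1, a mitochondrial enzyme that interconverts ketone bodies, had 35.6, 35.7 and 18.6 against 259 and 308 (log2 fold change 3.25, SE 0.55). Slc38a3, a glutamine transporter, had 51.0, 28.3 and 18.6 against 322 and 294 (log2 fold change 3.25, SE 0.58). Arg1, the arginase that cleaves arginine to urea and ornithine, had 483, 696 and 559 against 8788 and 2377 (log2 fold change 3.31, SE 0.58). Slc16a3, Bdh1 and Arg1 were also above every virgin tumour in MS1210.1, MS1349.1 and MS1166.1, where Slc16a3 reached 1902 to 3564, whereas Slc38a3 was at 2.81 and 38.1 in MS1210.1 and MS1166.1.

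Asprv1, a protease of epidermis, had 71.3, 7.35 and 11.2 against 359 and 335, and Klk7, a kallikrein protease of skin, 5.78, 7.35 and 0 against 57.4 and 122. Adm2, a peptide hormone of the adrenomedullin family, had 1.93, 11.5 and 0 against 165 and 66.98, and the homeobox gene Tlx3 had 0.963, 3.15 and 0 against 49.1 and 36.1. Cdhr1, a cadherin-related gene, had 132, 318 and 46.0 against 1075 and 1642. In all of these both parous tumours stood apart from all virgin tumours, and in the virgin tumours Klk7, Adm2 and Tlx3 rested on few reads.

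Of the 29 lists, MHC class I held the largest share of genes that separated the sides. Both parous tumours lay above all virgin tumours in 10 of 12 genes (83.3%, beside 11.5% of all genes), all 12 log2 fold changes were above 0, and the median was 1.31. H2-K1 (ENSMUSG00000061232; chromosome 17, 33996017 to 34000347), a heavy chain, had 4034, 5807 and 1855 in the virgin tumours and 14879 and 11301 in the parous tumours. Its log2 fold change was 1.77 (SE 0.57). H2-D1, another heavy chain, had 3831, 6021 and 2049 against 14353 and 10626 (log2 fold change 1.68, SE 0.55). B2m (ENSMUSG00000060802; chromosome 2, 122147686 to 122153083), the light chain, had 3194, 4636 and 1509 against 8265 and 8875 (log2 fold change 1.48, SE 0.53). The sides did not overlap in any of the 3, and MS1163.2 was the lowest tumour in each.

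Genes that load the peptide behaved in the same way. Tap1 had 1187, 1256 and 465 against 2300 and 2359, Tapbp, which holds the heavy chain at the transporter, 2925, 2526 and 1110 against 6175 and 4143, and Psmb8, a subunit of the immunoproteasome, 703, 885 and 260 against 1473 and 1559. Nlrc5, the transactivator of class I genes, had 524, 525 and 265 against 624 in MS1218.2 and 1982 in MS1155.3, so that the gap there was small. H2-T23 and H2-M3 overlapped, since MS1155.3 lay within the virgin range. Of the 12 genes 10 lie on chromosome 17, and the other two are B2m and Nlrc5. Heavy chain genes are near copies of each other and only reads with a unique position were counted, so that reads may have been lost from or shared among them, which does not concern B2m.

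In 8 of the 12 genes all 5 parous epithelial tumours were above all virgin tumours, beside 5.27% of all genes. With each of the 5 high-amplified tumours left out in turn, the median log2 fold change of the list was between 0.95 (without MS1163.2) and 1.70 (without MS1163.1), and between 10 and 12 genes did not overlap. Of all 13768 genes, between 1987 (without MS1163.2) and 5159 (without MS1155.3) lay higher on the parous side. Summed over the list, the level was 8970 to 25603 in the virgin tumours and 57780 and 46456 in MS1218.2 and MS1155.3, and 51584 to 56492 in the 3 not/low-amplified tumours.

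Interferon-stimulated genes showed a similar separation with a wider spread. Both parous tumours were above all virgin tumours in 13 of 23 genes (56.5%, beside 11.5% of all genes), all 23 log2 fold changes were above 0, and the median was 1.69. Isg15 (ENSMUSG00000035692), a ubiquitin-like protein, had 96.3, 118 and 16.2 in the virgin tumours against 391 and 406 in the parous tumours (log2 fold change 2.39, SE 0.74). Irf7, the factor that amplifies the type I interferon response, had 675, 843 and 103 against 2355 and 2990 (log2 fold change 2.32, SE 0.74). Rsad2, which encodes viperin, had 223, 316 and 47.2 against 638 and 1270 (log2 fold change 2.30, SE 0.72). Oas2, a synthetase of 2-5A, had 263, 138 and 83.3 against 348 and 2561 (log2 fold change 3.17, SE 0.81) and was the member that DESeq2 called (adjusted p = 0.0318).

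The spread lay with 2 tumours. MS1163.2 was the lowest tumour in 22 of the 23 genes and MS1155.3 the highest in 21. Without MS1155.3 the median of the list was 0.98, and 13 genes did not overlap, beside 5159 of all 13768 genes higher in MS1218.2. Without MS1163.2 it was 1.25, and the same number did not overlap, beside 1987 of all genes higher in both parous tumours. With all 5 tumours, 1590 of all genes lay higher in both parous tumours. Mx1 and Ifih1 overlapped because MS1218.2 lay within the virgin range, as in Mx1, an antiviral GTPase, with 274.5, 164 and 58.4 against 142 and 827. In each of the 13 genes that separated the sides, all 5 parous epithelial tumours lay above all virgin tumours, beside 726 of the 1590 genes higher in both parous tumours. Ifng, the gene of interferon gamma, was at 0.963, 0 and 2.49 in the virgin tumours and at 0 in both parous tumours. The 9 MHC class II genes tested, made in antigen-presenting cells, all had a log2 fold change above 0 (median 1.01). Of these 9 genes, 2 (22.2%, beside 11.5% of all genes) lay higher in both parous tumours. MS1218.2 was the highest tumour in 7 of the 9, and without it the median was -0.04. Cd74, the invariant chain, was at 6397, 1443 and 1273 against 14408 in MS1218.2 and 2812 in MS1155.3.

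**Figure D2:**
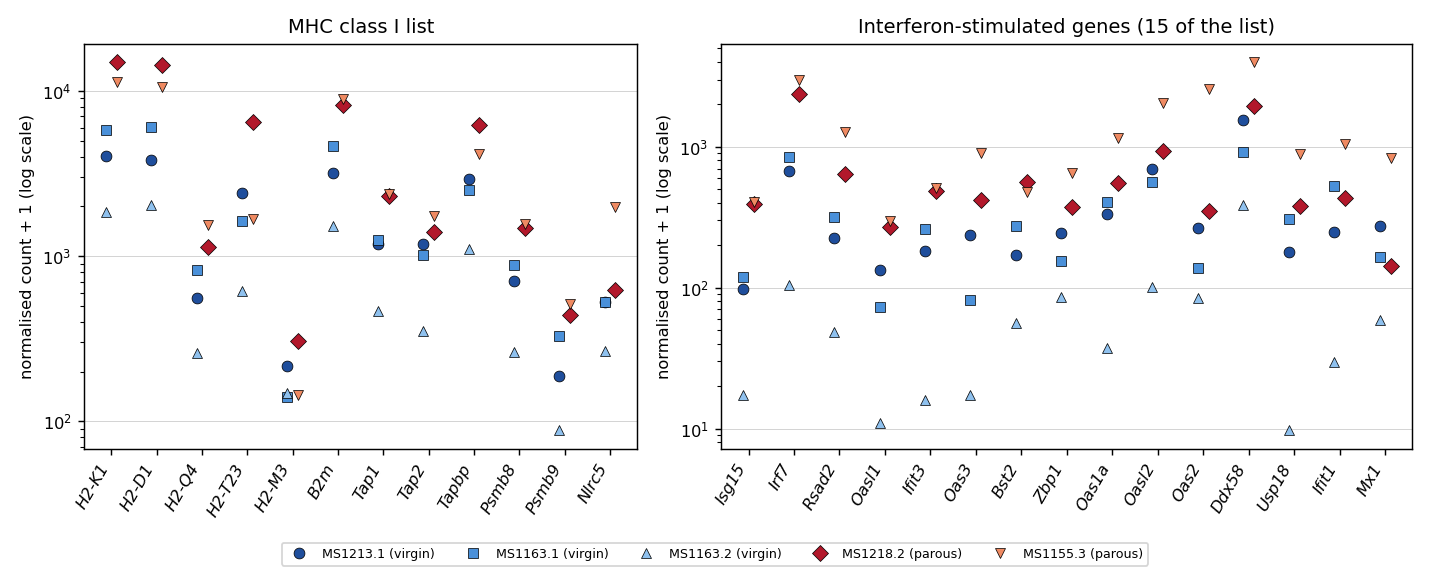
Normalised counts plus 1 (log axis) of the 12 MHC class I genes (left) and 15 interferon-stimulated genes (right), 1 point per tumour, blue for virgin and red or orange for parous. Both parous tumours lie above all virgin tumours in 10 of the 12 class I genes, and MS1163.2 is lowest in 11 of the 12.

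Genes that did not overlap were concentrated on chromosome 4, a pattern looked for after the values were seen. Of 848 tested genes of this chromosome, 405 (47.8%) lay higher in both parous tumours than in all virgin tumours and 4 (0.472%) lower. The chromosome held 6.16% of the genes tested, 25.5% of the genes higher in both parous tumours and 19 of the 76 with a gap of at least 2-fold. The median log2 fold change of its genes was 0.74. On chromosome 15, 157 of 550 genes (28.5%) lay higher in both parous tumours and 3 (0.545%) lower, with a median of 0.37. On each of the other chromosomes between 3.57% and 13.7% of genes lay higher in both parous tumours and the median was between -0.23 and 0.20. Without chromosomes 4 and 15, 1028 genes (8.31%) lay higher in the parous and 1266 (10.2%) higher in the virgin tumours.

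The shift ran across most of chromosome 4. The median level of its genes, each as the log2 difference from its mean over the 5 tumours and relative to the median of all genes of the library, was -0.20, -0.31 and -0.24 in MS1213.1, MS1163.1 and MS1163.2 and 0.40 and 0.41 in MS1218.2 and MS1155.3. The 3 virgin tumours lay close together, as did both parous tumours, although MS1213.1 is from another mouse than the other virgin tumours. MS1210.1, MS1349.1 and MS1166.1 were at 0.33, 0.41 and 0.47, so that all 5 parous epithelial tumours were high, and 290 of the 848 genes (34.2%) separated all 5 from the virgin tumours. In windows of 20 Mb, MS1155.3 was between 0.37 and 0.52 along the whole chromosome. MS1218.2 was at 0.11 to 0.59 from 40 to 80 Mb and from 100 Mb to the end, and at -0.14, -0.29 and -0.19 in the windows from 0 to 20, 20 to 40 and 80 to 100 Mb. In those 3 windows 13.5%, 18.4% and 8.51% of genes lay higher in both parous tumours, and in the other 5 between 42.4% and 59.3%.

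**Figure D3:**
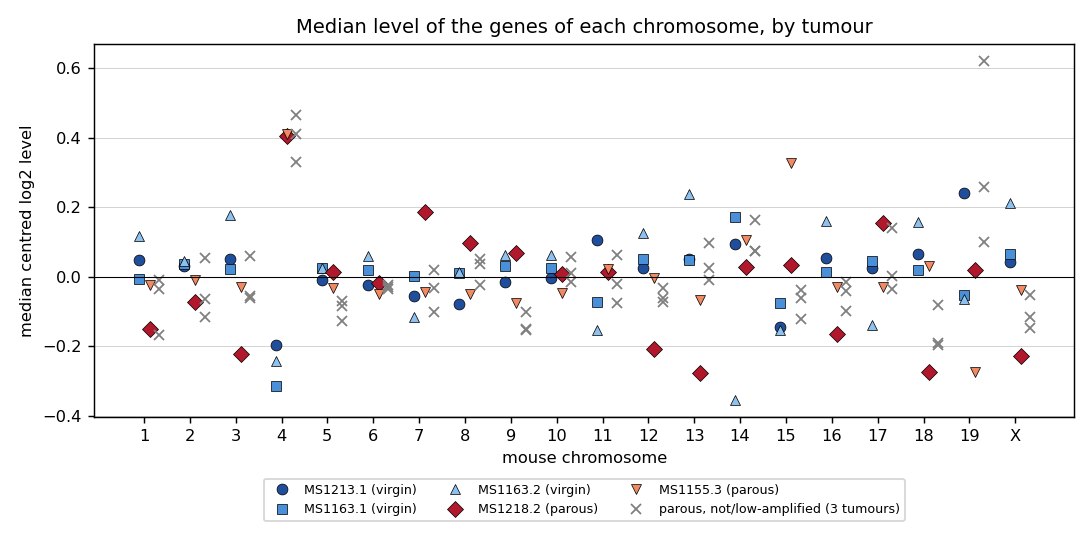
Median centred log2 level of the tested genes of each chromosome, 1 point per tumour, blue for virgin, red or orange for parous and grey crosses for the 3 not/low-amplified parous tumours. On chromosome 4 the virgin tumours lie between -0.31 and -0.20 and all parous tumours between 0.33 and 0.47.

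Chromosome 15 was less even. Its median level was -0.14, -0.07 and -0.15 in the virgin tumours, 0.04 in MS1218.2 and 0.33 in MS1155.3, and -0.12 to -0.04 in the 3 not/low-amplified tumours, which did not separate from the virgin tumours. In MS1218.2 the window from 60 to 80 Mb stood out with 0.35, and 43.9% of its genes lay higher in both parous tumours.

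Named genes of chromosome 4 were chosen here after their values were seen. Jun, a subunit of AP-1, had 994, 979 and 722 in the virgin tumours against 2696 and 2078 (log2 fold change 1.43). Epha2, a receptor tyrosine kinase, had 1084, 1167 and 1158 against 2994 and 4772 (log2 fold change 1.79), and Sfn, the epithelial 14-3-3 protein sigma, 240, 166 and 124 against 1232 and 604 (log2 fold change 2.41). Clic4 had 1959, 1486 and 2087 against 5103 and 4230 (log2 fold change 1.37), and Pgd, an enzyme of the pentose phosphate pathway, 1061, 1124 and 884 against 2348 and 2397 (log2 fold change 1.24). In each of them both parous tumours lay at least 2-fold above all virgin tumours. Isg15 and Ddx58 of the interferon list, Slc2a1, Car9 and Eno1 of the hypoxia list and Lao1 and Plin2 of the milk list lie on the same chromosome. How much of their difference goes with the shift of the chromosome was not tested. Without chromosomes 4 and 15, 11 of 21 interferon-stimulated genes (52.4%, beside 8.31% of all genes off these chromosomes) lay higher in both parous tumours, with a median of 1.69. The MHC class I list has no gene on either.

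Some of the hypoxia and glycolysis genes lie on chromosomes 4 and 15, and the part of these chromosomes in their levels was not tested. Of 18 genes, 7 (38.9%, beside 11.5% of all genes) lay higher in both parous tumours, 17 had a log2 fold change above 0 and the median was 0.72. Slc2a1, the glucose transporter GLUT1 (chromosome 4, 119108711 to 119137983), had 954, 2159 and 2104 against 7328 and 4480 (log2 fold change 1.80, SE 0.49). Car9, a carbonic anhydrase induced by hypoxia, had 54.9, 247 and 241 against 1595 and 582 (log2 fold change 2.63, SE 0.70). Ndrg1 (chromosome 15, 66929318 to 66969640), a stress-induced gene, had 2384, 2651 and 1801 against 8409 and 10474 (log2 fold change 2.07, SE 0.42; DESeq2 adjusted p = 0.00129). MS1213.1 was the lowest tumour in 15 of the 18 genes, as with Pgk1, a glycolytic kinase, at 1349 there against 4829 to 7015 in all others. Without the genes of chromosomes 4 and 15, 3 of 14 (21.4%, beside 8.31% of all genes off these chromosomes) did not overlap and the median was 0.47.

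Markers of epithelial lineages were checked next. Of the luminal genes, Krt8, a simple epithelial keratin, was at 7841, 10440 and 8043 against 17899 and 15703, and Epcam, an epithelial adhesion molecule, at 7106 to 10234 in all 5 without separation. Krt19, another keratin, was uneven among the virgin tumours, at 4057 in MS1213.1, 98.6 in MS1163.1 and 232 in MS1163.2. Of 14 luminal genes 3 lay higher in both parous tumours (21.4%, beside 11.5% of all genes) and the median log2 fold change was 0.46. Of 13 basal and myoepithelial genes, 4 lay higher in both parous tumours (30.8%, beside 11.5% of all genes) and the median was 2.06. These were Krt17 (288, 153 and 59.7 against 453 and 1135; log2 fold change 2.25), Myh11 (259, 218 and 406 against 1455 and 581; 1.83), Cnn1 (27.9, 10.5 and 29.8 against 390 and 64.4; 3.36) and Cdh3, P-cadherin (39.5, 50.4 and 82.0 against 349 and 188; 2.27). The parous tumours were not alike here. The contractile genes Acta2 and Actg2 were at 11087 and 1878 in MS1218.2. In MS1155.3 Acta2 was at 845, within the virgin range of 807 to 903, and Actg2 at 32.2, below the virgin range of 65.5 to 89.2. By contrast, the basal keratin Krt5 was at 1392 in MS1155.3 and at 30.6 in MS1218.2, within the virgin range of 12.6 to 154. Without MS1218.2 the median was 1.33 and without MS1155.3 1.38. Fibroblast and macrophage genes, given below, moved with the contractile genes in MS1218.2, and their part in the result was not tested. Of 9 squamous genes tested 4 lay higher in both parous tumours, beside 11.5% of all genes. The median log2 fold change of the list was 0.76, and -0.30 without MS1155.3. Among the 4 was Krt6b (0, 0 and 1.24 against 1.85 and 69.6), which rested on few reads outside MS1155.3. Krt6a, which overlapped, was at 419 in MS1155.3 and at most 15.4 in the other 4 tumours.

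The 21 genes at least 2-fold higher in all virgin tumours belonged to none of the 29 lists. Trim12a (ENSMUSG00000066258; chromosome 7), of the family of antiviral TRIM proteins, had 327, 77.7 and 55.9 in the virgin tumours and 0 in both parous tumours. Against a floor of 3 counts per library, the lowest virgin tumour was at least 14.5-fold above the parous tumours. It was at 136 and 85.5 in MS1210.1 and MS1349.1 and at 1.19 in MS1166.1. Its neighbour in the family, Trim5, had 87.6, 29.4 and 23.6 against 1.85 and 0, and 41.5, 15.3 and 0 in the same 3 tumours.

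Dcpp1 and Dcpp2, secreted proteins first known from salivary glands, had 384, 212 and 103 and 92.5, 72.4 and 49.7 in the virgin tumours, against 4.63 and 19.3 and 0.926 and 0 in the parous tumours. They lie in a cluster of near copies on chromosome 17, as do the Trim genes on chromosome 7, and reads shared between copies were not counted. Cnksr2, a scaffold of Ras signalling on the X chromosome, had 63.6, 154 and 216 against 1.85 and 12.9 (log2 fold change -4.30, SE 1.04), and 0 in all 3 not/low-amplified tumours. Pabpc4l had 176, 184 and 302 against 41.7 and 21.9 (log2 fold change -2.75, SE 0.62), and Ceacam10, a cell adhesion molecule, 189, 671 and 267 against 23.1 and 65.7 (log2 fold change -3.07, SE 0.78). Dtna, which encodes dystrobrevin alpha, had 548, 446 and 546 against 174 and 122 (log2 fold change -1.76, SE 0.42). Caps2 (50.1, 29.4 and 34.8 against 3.70 and 5.15) and the predicted genes Gm7221 (89.6, 54.6 and 68.4 against 1.85 and 15.5) and Gm10800 (188, 50.4 and 1449 against 1.85 and 10.3) were also higher in all virgin tumours. Parous levels of these 3 rested on few reads, and Gm10800 varied most among the virgin tumours.

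Of 24 cell cycle genes, 23 had a log2 fold change below 0, with a median of -0.53, but the sides overlapped in 22. In each direction 1 gene did not overlap (4.17%), beside 11.5% of all genes higher in the parous and 9.25% higher in the virgin tumours. MS1163.2 was the highest tumour in 18 of the 24 and MS1213.1, also virgin, the lowest in 19. Mki67 was at 2283, 5546 and 6246 in the virgin and 1726 and 3350 in the parous tumours. The exception was Cdc20, an activator of the anaphase-promoting complex on chromosome 4, which lay higher in both parous tumours (120, 292 and 360 against 571 and 451). Birc5, survivin, was the 1 member higher in all virgin tumours (274, 320 and 306 against 188 and 225; log2 fold change -0.51). Of 12 canonical Wnt targets tested, 10 were below 0 with a median of -0.55. In 1 (8.33%) all virgin tumours lay higher, near the share over all genes (9.25%). It was Nkd2, a feedback inhibitor (1070, 781 and 1087 against 579 and 528, log2 fold change -0.80). None of the 9 Wnt ligands tested separated the sides, beside 11.5% and 9.25% of all genes. All 9 log2 fold changes were above 0 (median 0.83), but MS1218.2 was the highest tumour in 6 of the 9 and without it the median was -0.20. Genes of lipid synthesis separated the sides at about the shares over all genes (11.5% and 9.25%). Of 18 genes 3 lay higher in both parous tumours, which were Srebf1 (5362 to 13492 against 25763 and 25074; log2 fold change 1.29) and the desaturase genes Fads1 (334 to 859 against 1181 and 2234; 1.64) and Fads2 (341 to 790 against 912 and 1283; 1.15), and 2 higher in all virgin tumours, among them Hmgcs1, an enzyme of cholesterol synthesis (1100 to 2963 against 692 and 1060).

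Of 19 genes of involution and the acute phase, 4 lay higher in both parous tumours, beside 11.5% of all genes. The median log2 fold change of the list was 0.85, and 0.17 without MS1218.2. Lrg1, a secreted glycoprotein of the acute phase, had 1159, 1217 and 544 against 6775 and 2955 (log2 fold change 2.35, SE 0.53; DESeq2 adjusted p = 0.0276). Saa3 was the 1 member higher in all virgin tumours (77.0, 77.7 and 198 against 62.0 and 50.2). Among receptors and ligands of the ERBB family, Egfr (2838 to 3058 against 3795 and 4268; log2 fold change 0.48) and Areg (45.1 to 79.9 against 95.4 and 102; 0.76) lay higher in both parous tumours and Btc higher in all virgin tumours (146 to 209 against 66.7 and 126; -0.88), that is 2 and 1 of 14, near the shares over all genes (11.5% and 9.25%). In the remaining lists the genes higher in both parous tumours, beside 11.5% of all genes, were 1 of 15 hormone receptors and their targets, 2 of 18 ERK feedback targets, 1 of 13 Notch genes and 0 of 14 genes of epithelial-mesenchymal transition.

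**Figure D4:**
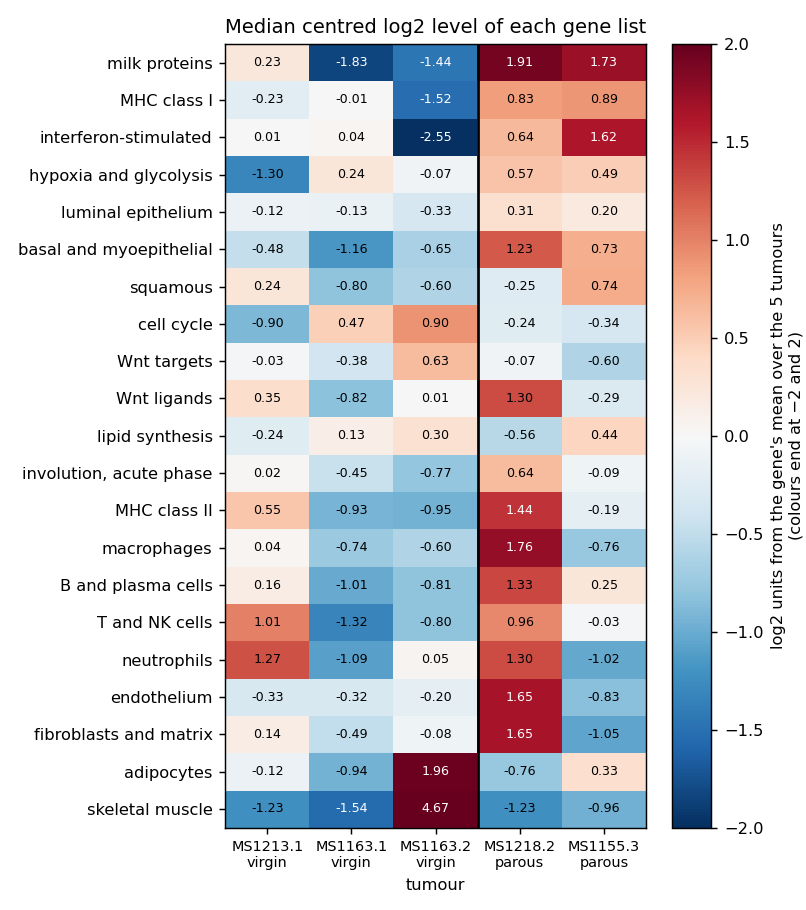
Median centred log2 level of each gene list (rows) in each tumour (columns), as log2 units from each gene's mean over the 5 tumours. The milk, MHC class I and interferon-stimulated lists are above 0.6 in both parous tumours, whereas macrophage, endothelial and fibroblast lists are above 1.6 in MS1218.2 and below -0.7 in MS1155.3.

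Genes of other cell kinds stood apart in single tumours. In bulk tissue, fewer cells of a kind and less RNA per cell cannot be told apart. Macrophage genes were highest in MS1218.2 in 16 of 16 cases, with a summed level of 112216 there against 14418 to 25683 in the virgin tumours and 16620 in MS1155.3. Cd68 was at 304, 324 and 216 in the virgin tumours, 3860 in MS1218.2 and 280 in MS1155.3. The 16 log2 fold changes were all above 0 (median 1.44), but without MS1218.2 the median was -0.16. Fibroblast and matrix genes summed to 626501 in MS1218.2, 123516 to 189229 in the virgin tumours and 71370 in MS1155.3, and endothelial genes to 25505, 6539 to 7355 and 5263. No gene of the macrophage, endothelial or fibroblast lists separated virgin from parous tumours. In the summed levels of these 3 cell kinds MS1155.3 was below or within the virgin tumours. In the milk, MHC class I and interferon lists it lay above all virgin tumours in 12 of 16, 10 of 12 and 22 of 23 genes. Of all 13768 genes, 3100 lay higher in MS1155.3 than in all virgin tumours. The part of the 3 cell kinds in the levels of the milk, MHC class I and interferon lists was not tested.

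Lymphocyte genes were low in all 5 tumours. T and NK cell genes summed to 110 to 446 in the virgin tumours and to 482 and 290 in the parous tumours. Of 11 tested, 2 (18.2%, beside 11.5% of all genes) lay higher in both parous tumours. B and plasma cell genes summed to 157 to 489 and to 723 and 544, and 3 of 6 tested did not overlap, beside 11.5% of all genes higher in both parous tumours, among them Jchain, the joining chain of secreted antibodies (94.4, 22.0 and 47.2 against 115 and 379). Neutrophil genes, of which 0 of 7 separated the sides, summed to 205986 in MS1213.1, where Ltf alone made up 204385. Skeletal muscle genes were high only in MS1163.2 (summed level 4761, at most 638 in the others), where adipocyte genes were also highest (8831, at most 3940 in the others). MS1163.2 is also the lowest tumour in most interferon-stimulated and MHC class I genes, and the part of these cells in that level was not tested. Without MS1163.2, 10 of 12 MHC class I and 13 of 23 interferon-stimulated genes lay higher in both parous tumours. Of all 13768 genes, 1987 did so without MS1163.2.

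The label of high amplification covered different patterns, which cut across parity. Erbb2 (chromosome 11) was at 51764, 5284 and 6689 in the virgin tumours and at 15261 and 105019 in the parous tumours, a mean log2 difference of 1.71 (exact permutation test, two-sided, p = 0.40 over 10 splits; the smallest p this design allows is 0.10). Counts are of reads that aligned to mouse Erbb2, and those from the rat NeuNT sequence were not counted apart. Stard3, next to Erbb2 and a lipid transfer protein of endosomes, was at 24420 and 26988 in MS1163.1 and MS1163.2 and 18530 in parous MS1218.2, but at 577 in virgin MS1213.1 and 594 in parous MS1155.3. Mien1 divided the tumours likewise (44357, 47600 and 34518 against 3136 and 7945). Med1, a subunit of Mediator, was at 33506 in MS1218.2 and 2607 to 3073 in all others. By Stard3 and Mien1 each parous tumour had a virgin counterpart, MS1155.3 with MS1213.1 and MS1218.2 with the pair from mouse 1163. Of 19 genes beside Erbb2 tested, 1 lay higher in both parous tumours, Nr1d1, and 1 higher in all virgin tumours, Csf3. That is 5.26% each, beside 11.5% and 9.25% of all genes.

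**Figure D5:**
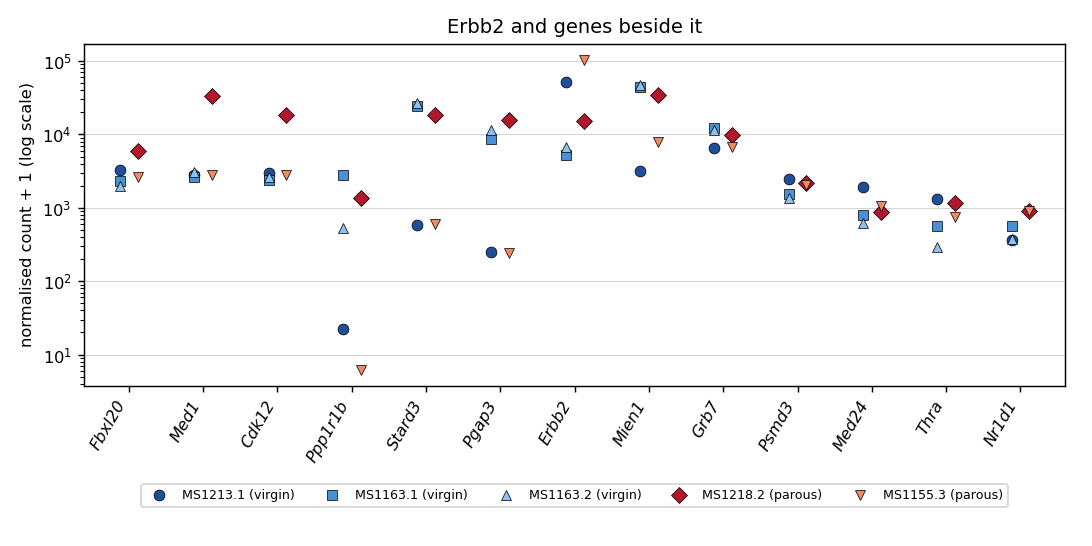
Normalised counts plus 1 (log axis) of Erbb2 and 12 genes beside it, 1 point per tumour, blue for virgin and red or orange for parous. Stard3, Pgap3 and Mien1 are high in MS1163.1, MS1163.2 and MS1218.2, while Erbb2 is highest in MS1213.1 and MS1155.3.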

How the data were processed

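For each of the 9 tumours the authors deposited the reads counted per gene as whole-number counts, and for the 8 epithelial tumours a second signal, these counts divided by a size factor for each tumour as computed with DESeq2. According to the study's methods, reads were aligned with STAR to GRCm38 (at most 3 mismatches), multiply aligned reads were dropped and HTSeq-count gave the counts. Libraries were strand-specific, but settings for unstranded data are given, so that reads of a gene and of an antisense partner cannot be told apart. The files list 18484 genes, of which 18420 were placed on GRCm38 with GENCODE M21. Rows that name no gene were not present.

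The members and the 29 gene lists were chosen with earlier results of these data known, and chromosomes were examined after the values were seen. Groups came from the labels. Counts of the 5 tumours were fitted with edgeR 4.0.16 (TMM, glmQLFit and glmQLFTest, no covariate, Benjamini-Hochberg adjustment) over genes with a mean count of at least 10, and called at an adjusted p-value under 0.05 with a fold change over 2. Standard errors are the log2 fold change divided by the square root of F. Non-overlap and gaps used the deposited normalised counts, with 10 added for gaps. Lists carry counts and medians and no test. Erbb2 was compared by an exact permutation test. Named genes were the called genes, the 12 with the widest gap in each direction, and list members with a wide gap or a defining role, and others are marked. At these depths 3 counts hold at most 2.4e-05% of a library, which covers counting error only. The tests were tested on simulated data. Alternatives were DESeq2 1.42.0, limma-voom 3.58.1, other filters, scalings and added counts, the 8 epithelial tumours in 1 fit, both tumours of mouse 1163 summed, and each tumour left out. Leaving out chromosomes 4 and 15, and all alternatives for single chromosomes, were added after the data were seen. R 4.3.3, Python 3.11.15, numpy 2.4.6, pandas 2.3.3, scipy 1.17.1 and matplotlib 3.10.9 were used. The sarcoma was left out, and some genes that met the rule for named genes are not reported here.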

Additional observations from a re-analysis of the deposited data

How the results depend on the processing

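EdgeR called 0 genes in each setting run except without a filter on counts, where it called 1 higher in the parous tumours (Csn1s2a), and DESeq2 called 45 and 21. The number of genes at an unadjusted p-value under 0.05 was 871, and 430 with both tumours of mouse 1163 summed; with each tumour left out it lay between 342 (without MS1163.2) and 3297 (without MS1155.3). Counts of genes that did not overlap rose as tumours were left out: higher in the parous between 1984 and 5166, higher in the virgin between 1682 and 4641, and with a gap of at least 2-fold between 107 and 1363 and between 34 and 1205, the highest without MS1155.3 in each case; fewer tumours make such a gap easier to meet. With the tumours of mouse 1163 summed, 2027 lay higher in the virgin tumours, and 116 and 36 had a 2-fold gap. With 1 added in place of 10, 36 had a gap higher in the virgin tumours, and with 50 added 35 and 6. With upper-quartile factors 1438 lay higher in the parous and 1509 higher in the virgin tumours, so that the order of these counts depends on the scaling. Without chromosomes 4 and 15, 1028 lay higher in the parous tumours, 48 with a 2-fold gap. The share of chromosome 4 with both parous tumours higher was between 39.7% (no filter) and 53.1% (mouse 1163 summed), and with tumours left out between 51.5% and 72.0%; that of chromosome 15 was between 23.8% and 32.2%, and between 31.4% and 60.7%.

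With tumours left out, the median log2 fold change lay between 1.85 and 3.96 for milk genes, between -0.16 and 2.04 for macrophage genes and between 1.33 and 2.80 for basal genes. The cause was not tested. For Erbb2 it was between 0.32 and 3.10 by the permutation test, and by edgeR between -0.53, which turned the direction, without MS1155.3 and 3.35 without MS1213.1. Of 1080 values of 84 named genes over 13 alternatives, 1 changed direction, this one, and 31 genes were called by DESeq2. No paired analysis was possible because replicate numbers were given in accession order and pair no samples. Depth limits genes with few reads, such as Tlx3 and Klk7 in the virgin tumours.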
